A study of Homo sapiens with 8 samples.

Results

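The genes described here encode 9 core components of the PI3K, AKT and mTOR kinase pathway, PIK3CA, PIK3CB, PIK3R1, AKT1, AKT2, MTOR, RPTOR, RICTOR and TSC2. They were chosen by symbol, with earlier results of these data known. All 9 stand in the deposited table of 24462 genes and passed the filter on low counts that left 12577 genes to test. RNA was sequenced from HepG2, a human cell line derived from a liver tumour, in 4 libraries with overexpression of EDN1 (labelled EDN1 O/E) and 4 mock libraries, with no further treatment of either group. The product of EDN1 is processed to endothelin-1, a peptide hormone that constricts vessels and acts through G protein-coupled receptors. The vector, the kind of mock control, whether a line came from 1 clone, and whether replicate libraries were separate cultures, were not stated in the labels. The p-values below therefore describe the spread between these libraries, which may be technical.

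In this pathway, an activated receptor recruits a PI3K heterodimer, made of a catalytic and a regulatory subunit, to the plasma membrane, where it phosphorylates an inositol lipid. AKT kinases bind that lipid, are phosphorylated and in turn inhibit the TSC complex, a brake on the small GTPase RHEB, which activates mTOR. mTOR works in one complex built on the protein raptor, which drives growth and protein and lipid synthesis, and in another built on rictor, which phosphorylates AKT. In liver the pathway carries the insulin signal. Most of this regulation is by phosphorylation, which transcript counts do not measure.

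Total counts were 8571252 to 11686180 per EDN1 O/E library and 8409173 to 14932385 per mock library. EDN1 had 2284 to 4764 counts in EDN1 O/E and 9 to 29 counts in mock, so every library matched its label. All 12 hepatocyte markers were tested, with APOB between 3041 and 5246 CPM (counts per 1000000 counts of the library). None of the 5 endothelial markers passed the filter, with at most 9 counts each in any library. Among the blood and immune markers, CD3E was at 0 in all libraries and PTPRC had at most 1 count, whereas LYZ lay between 369.8 and 751.6 CPM of the library total. The libraries EDN1 O/E 3, EDN1 O/E 4 and mock 4, called the second library set below, stood apart from the other 5, called the first library set. The labels name no batch. The sets were known from an earlier analysis of these same counts, so differences between them are given as descriptions with no test. Of the tested genes, 2923 (23.2%) had CPM values that did not overlap between the sets.

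None of the 9 transcripts differed between EDN1 O/E and mock beyond the spread between libraries. With edgeR's quasi-likelihood test, and Benjamini-Hochberg adjustment over all tested genes, 0 of the 9 were called at 0.05, and 0 had an unadjusted p under 0.05. DESeq2 and limma voom also called 0 of the 9, again with 0 at an unadjusted p under 0.05. Over all genes, 1 was called (0.00795% of those tested), which was EDN1. In 0 of the 9 did the EDN1 O/E libraries lie clear of the mock libraries, against 2.04% of tested genes. Fold changes were positive in 6 and negative in 3 of the 9, where 50.3% of tested genes were positive, with a median log2 fold change of 0.04, beside a median of 9.9e-04 over all tested genes. Between the library sets, 3 of the 9 did not overlap, AKT1, PIK3R1 and MTOR, beside 23.2% of tested genes. In RNA from whole cultures, fewer cells expressing a gene and less RNA per cell cannot be told apart.

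The promoters of these 3 genes are shown because they are the members whose libraries fell into separate levels by library set. Of all tested genes 23.2% did so. AKT1 was lower in the second set, and PIK3R1 and MTOR were higher. The sequences are the most upstream RefSeq windows on build GRCh38.p14, from 250 bases before to 50 bases after the annotated start, 5′ to 3′ on the strand of the gene. Capitals mark the GC box GGGCGG, or CCGCCC on the other strand, a binding motif of SP-family factors. The counts were made on hg19, so these windows give sequence context only.
AKT1 promoter, chr14:104795699-104795998, minus strand: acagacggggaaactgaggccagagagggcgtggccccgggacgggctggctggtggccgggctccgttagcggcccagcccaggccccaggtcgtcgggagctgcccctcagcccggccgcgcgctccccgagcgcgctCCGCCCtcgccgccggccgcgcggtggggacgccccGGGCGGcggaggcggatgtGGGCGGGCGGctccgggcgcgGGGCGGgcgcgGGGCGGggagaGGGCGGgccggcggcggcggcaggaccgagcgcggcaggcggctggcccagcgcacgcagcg
PIK3R1 promoter, chr5:68215506-68215805, plus strand: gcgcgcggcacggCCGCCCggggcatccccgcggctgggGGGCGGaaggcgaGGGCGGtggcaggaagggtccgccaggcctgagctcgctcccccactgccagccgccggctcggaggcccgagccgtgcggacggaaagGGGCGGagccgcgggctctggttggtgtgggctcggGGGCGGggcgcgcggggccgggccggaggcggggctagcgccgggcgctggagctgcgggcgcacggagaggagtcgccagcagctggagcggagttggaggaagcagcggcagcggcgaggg
MTOR promoter, chr1:11262502-11262801, minus strand: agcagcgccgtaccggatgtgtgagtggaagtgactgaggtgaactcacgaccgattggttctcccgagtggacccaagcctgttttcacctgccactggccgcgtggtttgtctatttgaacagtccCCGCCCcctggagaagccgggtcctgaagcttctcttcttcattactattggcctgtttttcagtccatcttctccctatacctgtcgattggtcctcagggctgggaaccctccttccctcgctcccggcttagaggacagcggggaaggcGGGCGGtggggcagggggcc
The AKT1 window held 7 GC boxes, overlapping ones included, and 49 CG dinucleotides, more than in 98.4% of the 35116 windows of that length. The PIK3R1 window held 5 GC boxes and 42 CG dinucleotides, and the MTOR window held 2 and 16. A GC box on either strand was present in 8 of the 9 most upstream windows, all but that of RPTOR. It was present in 44.494% of the most upstream windows of 27305 RefSeq genes. Those genes were not limited to the ones tested here, so the share is not matched to the 9 members. Some windows further downstream in the member genes, 1 of PIK3CB and 2 of PIK3R1, held none. The CCAAT box, searched as CCAAT and ATTGG, was present in 4 of the 9, with 3 copies at MTOR, against 35.711% of those windows. The FOXO motif GTAAACA, or TGTTTAC, was present in 1 of the 9, PIK3CA, against 3.439%. Whether these motifs bear on the levels of these genes was not tested.

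The labels name a QuantSeq kit, and the log of CPM rose with a slope of only 0.0403 on the log of deposited gene length over the tested genes. Levels between genes are compared as CPM per kilobase of deposited length, with the order by plain CPM beside it. Whether the reads came from transcript ends or whole transcripts was not settled, and the correction for length would not apply to reads from transcript ends. AKT1 and PIK3R1, for example, averaged 19.8 and 5.06 CPM per kilobase but 56.7 and 38.8 plain CPM. AKT2, the AKT gene best known for insulin action in liver, was the most abundant member in every library, between 55.7 and 77.2 CPM per kilobase. AKT1, its widely expressed paralogue, ranked next in every library, between 9.70 and 29.9 CPM per kilobase. PIK3R1, MTOR and PIK3CB took ranks 3 to 5, with means of 5.06, 4.20 and 3.70 CPM per kilobase and ranges that overlapped. RPTOR, TSC2 and RICTOR took ranks 6 to 8, with means of 2.47, 1.98 and 1.82 CPM per kilobase, and their ranges overlapped too. PIK3CA was last in every library, between 0.20 and 0.45 CPM per kilobase. By plain CPM, AKT2 and PIK3CA kept the ends of the order, AKT1 ranged from rank 2 to rank 4, and RICTOR passed RPTOR and TSC2 on the mean.

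**Figure D1:**
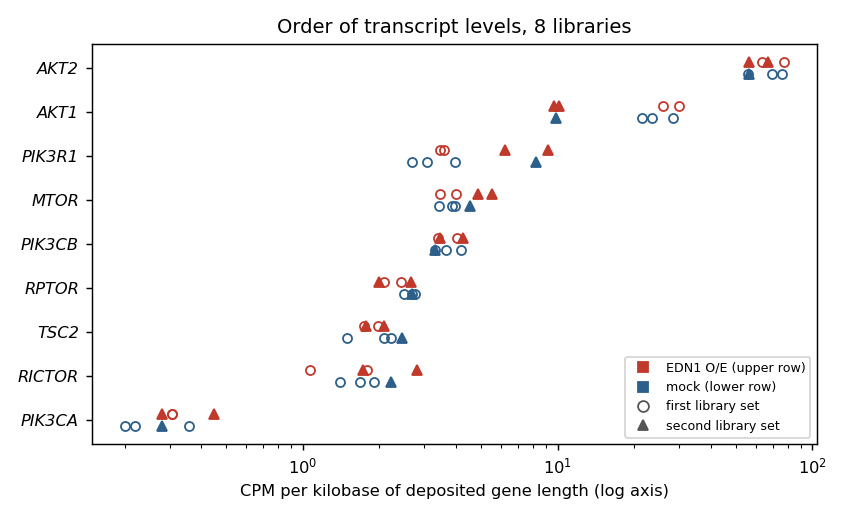
Level of each gene in each library, as CPM per kilobase of deposited gene length on a log axis, with EDN1 O/E in the upper row and mock in the lower row of each gene and the library sets as open circles and filled triangles. AKT2 lies between 55.7 and 77.2 and PIK3CA between 0.20 and 0.45, and AKT1 splits by library set in both groups.

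The catalytic subunit genes of PI3K differed widely in level. PIK3CA, which encodes the p110 alpha catalytic subunit and is often mutated in tumours, had 14, 10, 19 and 9 counts in EDN1 O/E 1 to 4, against 17, 6, 7 and 15 counts in mock 1 to 4. Scaled by library size this was 1.24 ± 0.285 CPM in EDN1 O/E and 0.979 ± 0.264 CPM in mock (SD, n = 4 each). Only 1.45% of tested genes had a lower mean over the 8 libraries. The groups overlapped, with EDN1 O/E 3 highest and mock 2 lowest. The log2 fold change of 0.32 (SE 0.33, 95% interval -0.41 to 1.06) was 0.15 without EDN1 O/E 3 and 0.51 without mock 1. The deposited length of PIK3CA was 3709 bases, whereas its longest coding transcript in GENCODE v29 has 9093 bases. A ratio as low as this 0.41 was found in 3.71% of tested genes, and the other 8 members had ratios from 0.73 to 1.09. In that annotation PIK3CA also overlaps KCNMB3 on the opposite strand, which had 123 to 267 counts. The part of annotation, strand and shared sequence in the low count of PIK3CA was not tested.

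PIK3CB, which encodes the p110 beta catalytic subunit, the form known for its link to G protein-coupled receptors, was the steadiest member. It had 20.0, 23.9, 20.5 and 25.3 CPM in EDN1 O/E 1 to 4, against 19.5, 24.7, 21.6 and 19.6 CPM in mock 1 to 4. The highest library exceeded the lowest by 1.30-fold, the smallest such range of the 9, and the groups overlapped almost fully. The log2 fold change was 0.07 (SE 0.16, 95% interval -0.27 to 0.42), which is a fold change between 0.827 and 1.34. Leaving out single libraries moved it between 0.01 (without EDN1 O/E 4) and 0.15 (without mock 2).

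PIK3R1, which encodes the p85 alpha regulatory subunit that stabilises and restrains the catalytic subunits, split by library set. It had 27.4, 26.5, 70.6 and 47.7 CPM in EDN1 O/E 1 to 4, against 30.4, 20.6, 23.6 and 63.2 CPM in mock 1 to 4. The 3 libraries of the second set lay between 47.7 and 70.6 CPM and the 5 of the first between 20.6 and 30.4 CPM, a 2.34-fold difference with the group as a term. Only 3.39% of tested genes differed as much between the sets. Between the groups the log2 fold change was 0.31 (SE 0.40, 95% interval -0.58 to 1.21), and it was -0.03 without EDN1 O/E 3 and 0.79 without mock 4. With the library set as a term it was 0.03 (SE 0.17, 95% interval -0.35 to 0.42), and within the first and second sets it was 0.11 and -0.11. The second set has a lone mock library, whose spread is assumed to be that of the EDN1 O/E libraries.

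**Figure D2:**
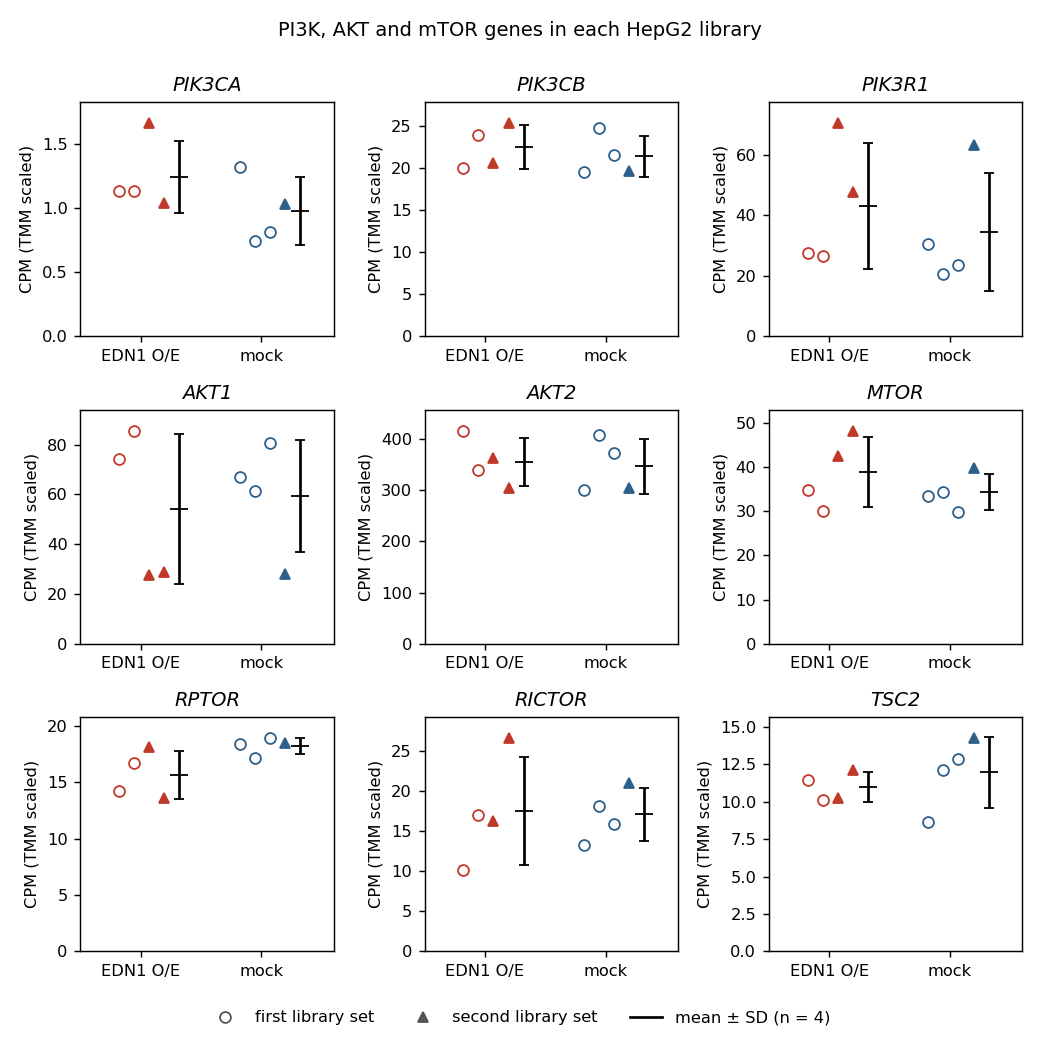
CPM (scaled by TMM) of the 9 genes in each library, EDN1 O/E left and mock right, with the mean and SD of 4 libraries beside the points and library sets as open circles (first) and filled triangles (second). In AKT1 the second set lies at 27.7 to 28.9 CPM in both groups, below all other libraries, and in PIK3R1 and MTOR it lies above them.

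AKT1 showed the mirror image of PIK3R1. It had 74.3, 85.5, 27.7 and 28.9 CPM in EDN1 O/E 1 to 4, against 66.9, 61.4, 80.8 and 28.1 CPM in mock 1 to 4. The second set lay between 27.7 and 28.9 CPM in EDN1 O/E and mock together, while the first set lay between 61.4 and 85.5 CPM. The difference of -1.42 on the log2 scale, a level 0.375 of that in the first set, was matched or exceeded in size by 2.14% of tested genes. The group means were 54.1 ± 30.2 CPM in EDN1 O/E and 59.3 ± 22.3 CPM in mock (SD, n = 4 each), a log2 difference of -0.13 (SE 0.41, 95% interval -1.05 to 0.79). The sign turned without EDN1 O/E 3 (0.09), EDN1 O/E 4 (0.08) or mock 3 (0.06), and the value was -0.44 without EDN1 O/E 2. With the library set as a term the log2 fold change was 0.13 with an SE of 0.13 (95% interval -0.15 to 0.42). Within the second set the EDN1 O/E and mock libraries differed by -7.09e-04 on the log2 scale, and within the first by 0.20.

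AKT2 varied far less. It had 416.5, 340.7, 362.5 and 304.3 CPM in EDN1 O/E 1 to 4, against 300.4, 408.5, 373.6 and 304.6 CPM in mock 1 to 4. Both groups spanned about the same range, and the log2 fold change was 0.04 (SE 0.16, 95% interval -0.32 to 0.40). It turned to -0.05 without EDN1 O/E 1 and to -0.02 without mock 1 or mock 4. AKT2 differed between the library sets by -0.21 on the log2 scale, with overlap, so the split of AKT1 was not shared by its paralogue.

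MTOR, the kinase of both mTOR complexes, had 34.9, 30.2, 42.4 and 48.3 CPM in EDN1 O/E 1 to 4, against 33.5, 34.5, 29.8 and 39.7 CPM in mock 1 to 4. Its second set lay above its first, 39.7 to 48.3 CPM against 29.8 to 34.9 CPM, a log2 difference of 0.40. The median size of the set difference over all tested genes was 0.28 on the log2 scale. Between the groups the log2 fold change was 0.18 (SE 0.18, 95% interval -0.22 to 0.57), and with the library set as a term it was 0.07 (SE 0.13). It lay between 0.06 (without EDN1 O/E 4) and 0.28 (without EDN1 O/E 2) when single libraries were left out.

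The scaffold genes of the mTOR complexes had no called difference. RPTOR, which encodes raptor, had 14.2, 16.7, 18.2 and 13.6 CPM in EDN1 O/E 1 to 4, against 18.4, 17.2, 18.9 and 18.4 CPM in mock 1 to 4. Of the EDN1 O/E libraries 3 lay below all mock libraries and EDN1 O/E 3 lay among them. Its log2 fold change of -0.22 (SE 0.16, 95% interval -0.57 to 0.13) had the smallest unadjusted p of the 9 members, 0.194, and an edgeR adjusted p of 1.00. The value ran from -0.30 (without EDN1 O/E 3) to -0.16 (without EDN1 O/E 4) and was -0.24 and -0.22 within the first and second sets.

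RICTOR, which encodes rictor, had 10.2, 17.0, 16.3 and 26.6 CPM in EDN1 O/E 1 to 4, against 13.3, 18.2, 15.9 and 21.0 CPM in mock 1 to 4. EDN1 O/E held both its lowest and its highest library. The log2 fold change was 0.03 (SE 0.27, 95% interval -0.57 to 0.64), and its sign turned without EDN1 O/E 4 (-0.24), mock 1 (-0.07) or mock 3 (-2.96e-04) and with the library set as a term (-0.13). RICTOR overlaps OSMR on the opposite strand in GENCODE v29, a gene with 361 to 803 counts here, and the counting is not stated to use strand.

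TSC2, which encodes tuberin, the part of the TSC complex that inactivates RHEB, had 11.5, 10.1, 10.3 and 12.1 CPM in EDN1 O/E 1 to 4, against 8.66, 12.1, 12.9 and 14.2 CPM in mock 1 to 4. All EDN1 O/E libraries lay within the mock range. The log2 fold change was -0.12 (SE 0.19, 95% interval -0.55 to 0.31), and it was -0.02 without mock 4 and -0.25 without mock 1. TSC2 overlaps NTHL1 and PKD1 on the opposite strand in GENCODE v29, with 188 to 327 and 170 to 446 counts. Without strand, reads from stretches that the genes share cannot be told apart, and the part of such reads in these counts was not tested.

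The precision of these comparisons differed among the members. For 6 of the 9, the 95% interval stayed inside a 2-fold change either way, all but PIK3CA, PIK3R1 and AKT1, beside 79.4% of tested genes. With the library set as a term it lay within 2-fold for 8 of the 9, all but PIK3CA, beside 84.7% of tested genes. Within 1.5-fold it lay for 7 with that term, beside 51.6% of tested genes. In the fit with the group only it lay within 1.5-fold for 5, beside 38.2%. The terms for the sets were taken from these same libraries, so intervals with them may be too narrow. Smaller differences than these intervals span were not detectable at this depth and spread. The intervals are for single genes and are not adjusted for the number tested, so a larger difference need not be called either. BAD, a gene of the wider pathway described below, had an interval of 0.10 to 0.90 on the log2 scale and was not called.

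**Figure D3:**
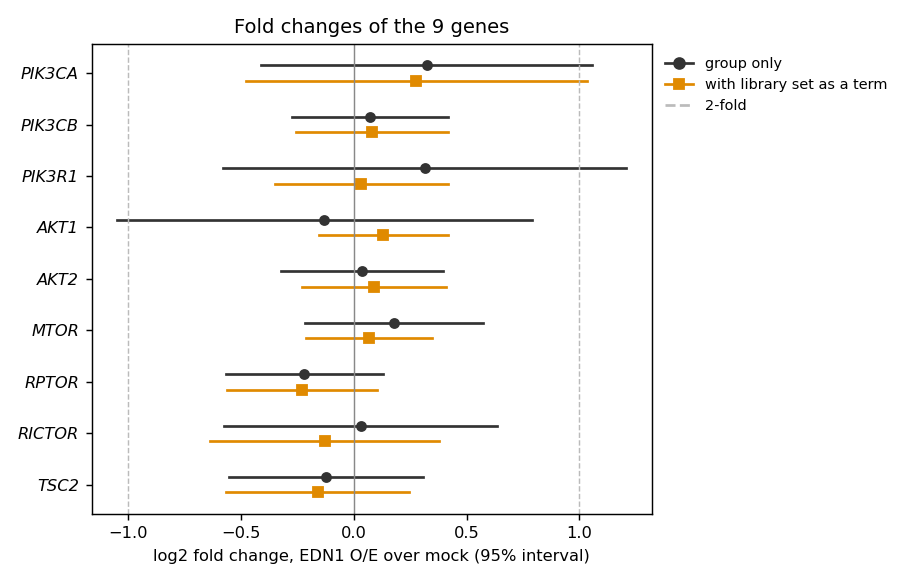
Log2 fold change of EDN1 O/E over mock with its 95% interval for each gene, from the fit with the group only (circles) and with the library set as a term (squares), with dashed lines at 2-fold. All intervals cover 0, and those of PIK3R1 and AKT1 narrow the most with the set as a term, to -0.35 to 0.42 and -0.15 to 0.42.

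Ratios within a library do not depend on how libraries are scaled, and 4 were compared by exact two-sided permutation tests over all 70 assignments of the group labels, where 0.0286 is the smallest possible p. The ratio of AKT2 to AKT1 counts was 5.60, 3.98, 13.1 and 10.5 in EDN1 O/E 1 to 4, against 4.49, 6.65, 4.62 and 10.8 in mock 1 to 4. It was at least 10.5 in the second library set and at most 6.65 in the first. On the log2 scale it was 0.26 higher in EDN1 O/E (p = 0.629 by the exact test), which turned to -0.01 when compared within library sets and without EDN1 O/E 3. The ratio of PIK3R1 to PIK3CA plus PIK3CB was 1.30, 1.06, 3.18 and 1.81 in EDN1 O/E 1 to 4, against 1.46, 0.811, 1.06 and 3.06 in mock 1 to 4. Its log2 difference of 0.26 (p = 0.629 by the exact test) turned to -0.12 within library sets, -0.05 without EDN1 O/E 3 and -9.82e-04 without mock 2.

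The ratio of PIK3CB to PIK3CA was highest at 23.1 in EDN1 O/E 4 among the EDN1 O/E libraries, against 30.8 in mock 2 among the mock libraries, and the groups overlapped. Its log2 difference was -0.27 (p = 0.429 by the exact test), with PIK3CA counts of 6 to 19 in its denominator, and it ran from -0.46 without mock 1 to -0.09 without EDN1 O/E 3 or mock 2. The ratio of RICTOR to RPTOR ran from 0.715 in EDN1 O/E 1 to 1.95 in EDN1 O/E 4, against 0.721 in mock 1 to 1.14 in mock 4. Its log2 difference was 0.20 (p = 0.686 by the exact test), and it was -0.09 without EDN1 O/E 4. Adjusted over the 4 ratios by the Benjamini-Hochberg method, the p of each was 0.686 by the exact permutation test.

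**Figure D4:**
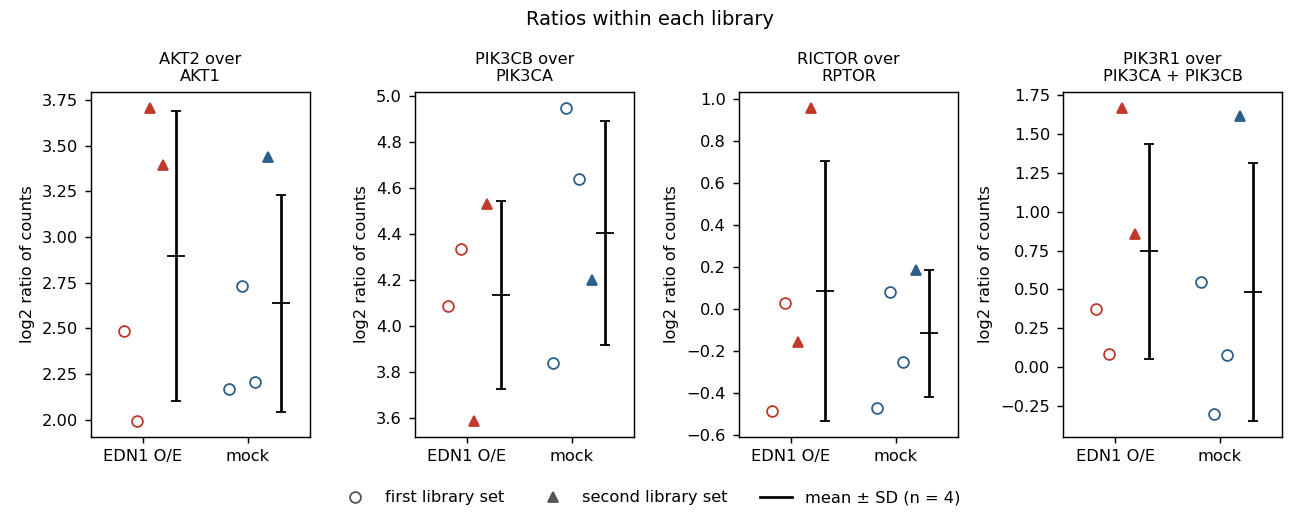
Log2 ratios of counts within each library, EDN1 O/E left and mock right, with mean and SD of 4 libraries and library sets as open circles (first) and filled triangles (second). The ratios of AKT2 to AKT1 and of PIK3R1 to PIK3CA plus PIK3CB are higher in the second set in both groups, at 10.5 to 13.1 and 1.81 to 3.18 before logs.

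The GC content of the transcripts is given beside the differences between the library sets. The longest coding transcript of AKT1 had a GC content of 58.7% and that of PIK3R1 40.3%, beside a median of 49.1% for the 11212 tested genes with a match by symbol. Over those genes the median difference between the sets, second minus first, was -0.16 on the log2 scale in the tenth with the highest GC content and 0.13 in the tenth with the lowest. AKT2, RPTOR and TSC2 had 58.3%, 59.8% and 60.5% GC, close to AKT1, and set differences of -0.21, 0.04 and 0.18. RICTOR, at 36.5% GC, had a set difference of 0.56, and PIK3CB, at 39.4%, had -0.03. MTOR, at 52.2% GC, had a set difference of 0.40, and PIK3CA, at 34.8%, had 0.18. The part of GC content in the set differences of these members was not tested.

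The patterns of the 9 genes over the 8 libraries were set beside those of 8696 or 8697 other genes with a mean of at least 10 CPM, by the root mean square distance between standardised log2 CPM profiles, where 0 is the same pattern. AKT1 was closest to CHCHD10, a mitochondrial protein gene, at a distance of 0.081, with 118.4 to 125.9 CPM in the second set. PIK3R1 was closest to the zinc finger gene ZNF33A at 0.088, MTOR to the Hippo pathway gene SAV1 at 0.154 and RICTOR to ZC3H7A at 0.165. PIK3CA, PIK3CB, AKT2, RPTOR and TSC2 had looser closest patterns, in FAM63B, CRYL1, CHMP3, PAF1 and ZNF205, at 0.233 to 0.470. Among the members, PIK3R1 and MTOR were the most alike pair at 0.621, and AKT1 and MTOR the least alike at 1.83. With 8 libraries and so many candidates, such closeness is a description of these libraries.

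The wider pathway was described by 10 lists of other genes, in which 115 genes were tested. These lists too were chosen with earlier results of these data known. By edgeR's quasi-likelihood test 0 of the 115 were called, and 5 had an unadjusted p under 0.05, PIK3C2B, INPP5E, RHEBL1, LAMTOR4 and BAD, which is 4.35% of them beside 2.85% of all tested genes. DESeq2 and limma voom also called 0, with 5 and 6 at an unadjusted p under 0.05. Groups did not overlap in 3 of them, PIK3C2B, INPP5E and BAD, beside 2.04% of tested genes. Because PIK3C2B passed the low count filter through its EDN1 O/E libraries, where it was higher, its part in these counts was favoured by the filter.

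Of 11 other PI3K subunit genes 7 were tested, and 6 had positive fold changes, with a median log2 fold change of 0.08. PIK3C2B, a class II PI3K gene, had 19, 19, 17 and 16 counts in EDN1 O/E 1 to 4, against 12, 8, 11 and 12 counts in mock 1 to 4. It averaged 1.76 ± 0.307 CPM in EDN1 O/E and 1.01 ± 0.190 CPM in mock (SD, n = 4 each), a log2 difference of 0.81 (SE 0.30), with an edgeR adjusted p of 1.00. PIK3C2B passed the low count filter through its EDN1 O/E libraries, where it was higher. Its place among the 6 positive genes is therefore not independent of that difference. The log2 fold changes of the regulatory subunit gene PIK3R3 and of PIK3C2A, another class II gene, were 0.74 (SE 0.41) and 0.27 (SE 0.20). The leukocyte catalytic subunit gene PIK3CG had at most 1 count in any library, and PIK3R6 had 0 in all 8.

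Upstream receptors and adaptors had negative fold changes in 10 of 12 tested genes, with a median of -0.07 on the log2 scale. The 2 positive ones became 5 when libraries were scaled by their totals alone or without mock 2, 4 without any 1 EDN1 O/E library or mock 4, and 1 with limma voom. The insulin receptor gene INSR averaged 113.0 ± 33.2 CPM in EDN1 O/E and 133.9 ± 27.8 CPM in mock (SD, n = 4 each), a log2 difference of -0.24 (SE 0.24), and IGF1R and ERBB3, receptor tyrosine kinase genes, had values of -0.33 (SE 0.33) and -0.30 (SE 0.21). Phosphatases that oppose the pathway had positive fold changes in 4 of 8, and in 2 without EDN1 O/E 3. INPP5E, an inositol lipid phosphatase gene of the primary cilium, averaged 3.69 ± 0.649 CPM in EDN1 O/E and 5.85 ± 1.05 CPM in mock (SD, n = 4 each). Its log2 fold change was -0.67 (SE 0.24), with an edgeR adjusted p of 1.00. PHLPP1, which encodes an AKT phosphatase, and INPP5D had values of 0.17 (SE 0.19) and 0.12 (SE 0.18).

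Among AKT partners, 3 of 6 tested genes had positive fold changes. The log2 fold change was -0.22 (SE 0.23) for PDPK1, the kinase that phosphorylates AKT in its activation loop, and 0.34 (SE 0.17) and 0.35 (SE 0.64) for SGK3 and SGK2, related kinases. SGK2 had 25 to 429 counts per library, and its value was 0.013 without mock 2 and 0.90 without mock 1. The other mTOR complex genes had positive fold changes in 2 of 8, which became 5 with the library set as a term, 6 without EDN1 O/E 4 and 4 without mock 3. DEPTOR, an inhibitor within both complexes, had 12, 11, 9 and 26 counts in EDN1 O/E 1 to 4, against 21, 32, 24 and 43 counts in mock 1 to 4. Its log2 fold change was -0.93 (SE 0.45), the lowest of that list, with EDN1 O/E 4 within the mock range. PRR5L, an mTORC2 partner, had 0.85 (SE 0.53), and AKT1S1, the mTORC1 inhibitor phosphorylated by AKT, -0.18 (SE 0.15).

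The log2 fold change was 0.30 (SE 0.17) for TSC1, the partner of TSC2, while the GTPase genes RHEBL1 and RHEB had -0.48 (SE 0.20) and -0.18 (SE 0.18), in a list with 2 of 4 positive. Genes of amino acid sensing at the lysosome had positive fold changes in 18 of 28, with a median of 0.09. LAMTOR4 and LAMTOR2, which anchor the Rag GTPases, had values of 0.42 (SE 0.18) and 0.24 (SE 0.17). AMPK and energy input genes had positive fold changes in 3 of 9, and in 5 without EDN1 O/E 3, with DDIT4, a stress-induced mTORC1 inhibitor, at -0.49 (SE 0.26), PRKAA1, a catalytic subunit gene of AMPK, at -0.27 (SE 0.19) and PRKAG1 at 0.20 (SE 0.19).

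Genes listed as substrates of AKT and mTOR, some of them reached only further downstream, had negative fold changes in 17 of 23. Their median was -0.15 on the log2 scale, beside 9.9e-04 over all tested genes. BAD, a pro-death protein that AKT phosphorylates, was an exception, with 11.0, 9.64, 9.82 and 9.58 CPM in EDN1 O/E 1 to 4, against 6.40, 8.52, 6.26 and 7.19 CPM in mock 1 to 4. All EDN1 O/E libraries lay above all mock libraries, a log2 difference of 0.50 (SE 0.18), with an edgeR adjusted p of 1.00. TBC1D1, a Rab GTPase regulator, had 0.40 (SE 0.21), and RPS6, the ribosomal protein phosphorylated downstream of mTORC1, -0.34 (SE 0.20). Transcripts known as targets of the FOXO factors that AKT restrains had negative fold changes in 12 of 14, with a median of -0.24, where the 2 positive ones became 1 with the library set as a term and 4 with no low count filter. Leaving out single libraries gave 1 positive gene without EDN1 O/E 4 or mock 1 and 5 without mock 2. The values were -0.53 (SE 0.27) for TRIB1, -0.30 (SE 0.21) for ERBB3 and -0.21 (SE 0.17) for CDKN1B. Some of these FOXO targets are also in other lists, INSR and ERBB3 among the upstream receptors and adaptors. The counts of those lists are therefore not separate results. G6PC and PCK1, FOXO targets of glucose production, were not tested, with at most 7 and 18 counts.

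**Figure D5:**
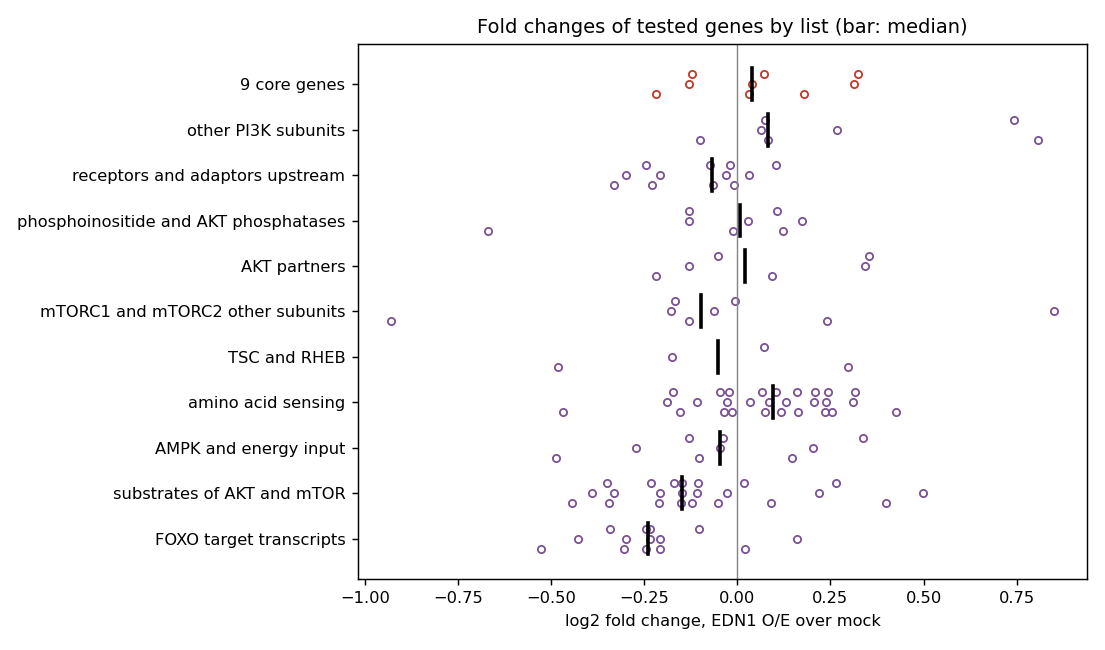
Log2 fold change of EDN1 O/E over mock for each tested gene of the 9 core genes and of each list, with a bar at the median of the list; the vertical offset of points within a row only separates them. The core genes spread from -0.22 to 0.32 about a median of 0.04, and the FOXO target transcripts have the lowest median, -0.24.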

How the data were processed

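The authors deposited raw read counts per gene with a gene length (other unit, in bases). Per the submitters' processing notes, Bowtie2, edgeR and the build hg19 were used; per the labels' protocols, total RNA went through a QuantSeq kit of Lexogen. Versions, the counter and its strand setting were not stated there. Of 25737 rows, 288 symbols stood on more than 1 row and were summed (except MARCH1 and MARCH2), giving 24462 genes.

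Groups and replicate numbers came from the sample titles. edgeR 4.0.16 (R 4.3.3) was used with filterByExpr (minimum count 10, 12577 genes), TMM scaling and a quasi-likelihood test on group alone, with Benjamini-Hochberg adjustment (threshold 0.05). The SE is the absolute log2 fold change over the root of F, and intervals are 95%. CPM of single genes uses TMM-scaled totals. Ratios used counts plus 0.5. DESeq2 1.42.0, limma 3.58.1 voom, other scalings and filters, the replicate number as a block, the library set and leaving out each library were alternatives. The test was tested on simulated data. No libraries agreed within sampling noise (lowest chi-square per degree of freedom 6.16).

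The members, lists and library sets were chosen with earlier results of these data known. Text names the members, EDN1, the 3 genes of smallest unadjusted p in each list and the closest pattern of each member; PIK3CG, PIK3R6, G6PC, PCK1 and the markers were added after their values were seen. A gene that the rule would name is not reported here. GENCODE v29 and RefSeq tables (GRCh38) gave transcript lengths, GC content, overlaps and promoters by symbol, and no coordinates were combined with hg19.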

Additional observations from a re-analysis of the deposited data

Results flagged for a closer look

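In groups of 4 libraries, a library was picked out where its gap to the nearest other library was a large part of the range of the group. Of 86 such groups examined, 4 had one, and chance gives about 1 in 20. PIK3CA was 1.67 CPM in EDN1 O/E 3, against 1.04 to 1.14 CPM in the other EDN1 O/E libraries, which rests on 19 counts. LAMTOR2 was 73.7 CPM in EDN1 O/E 3, against 51.8 to 54.9 CPM in the others. BAD was 11.0 CPM in EDN1 O/E 1, against 9.58 to 9.82 CPM in the others. CDKN1B was 103 CPM in mock 2, against 143 to 146 CPM in the other mock libraries.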

How the results depend on the processing

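Under 20 alternatives the number of the 9 members called was 0 each time, as was the number of list genes called, and 0 of 179 member values passed the threshold. The number of genes called over the whole table was 0 with at least 10 counts required in every library, which removed EDN1, and 3 with DESeq2 (2 higher, 1 lower), and 1 when each library was left out in turn. Directions were less firm, and the sign changed in 18 of the 179, among them 2 of PIK3R1 and 1 of MTOR. RICTOR was -0.050 with limma voom, -0.019 with the replicate block, -0.13 with the library set as a term and -0.22 in the first set alone. AKT1 was 0.13 with the library set as a term and 0.20 in the first set alone, MTOR was -7.62e-04 in the first set alone, and PIK3R1 was -0.11 in the second set alone. Among list genes, PDPK1 was 0.0014 in the first set alone and RHEB 0.015 in the second set alone. Within library sets the ratio of AKT2 to AKT1 was -0.0071 and that of PIK3R1 to PIK3CA plus PIK3CB -0.12. With each library left out in turn the log2 difference ran from -0.011 to 0.56 for AKT2 to AKT1, from -0.047 to 0.64 for PIK3R1 to PIK3CA plus PIK3CB and from -0.089 to 0.39 for RICTOR to RPTOR. Leave-one-out log2 fold changes ran from -0.44 to 0.089 for AKT1, -0.046 to 0.12 for AKT2, -0.033 to 0.79 for PIK3R1, -0.24 to 0.22 for RICTOR and -0.0046 to 0.26 for PHLPP1.

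Same-numbered libraries did not deviate together in every pair (correlations 0.477, 0.151, -0.149 and 0.528 for numbers 1 to 4). These deviations were not corrected for the library set. The libraries of number 3 lie in different sets, while those of each other number share a set. The correlations therefore cannot decide whether the numbers mark pairs, and the numbers were not taken as pairs. With the replicate block edgeR still called 1 gene and 0 members. With totals alone as scaling, 5 upstream receptor and adaptor genes had positive fold changes in place of 2. Counts of 6 to 19 limit PIK3CA, and a count of 0 allows up to 3 counts, or 0.201 to 0.357 CPM; such limits cover counting error only.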
